A study of Mus musculus with 32 samples.

Results

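The genes of 2 Polycomb repressive complexes were followed in E14 mouse embryonic stem cells during exit from naive pluripotency. The set holds 10 genes, taken by name from the 31053 genes in the files. Ezh2, Eed, Suz12, Jarid2, Mtf2 and Phf19 encode subunits of Polycomb repressive complex 2 (PRC2), and Cbx2, Cbx7, Rnf2 and Bmi1 encode subunits of PRC1. Of the 10 genes, 9 passed the filter on low counts and were tested with 11849 genes in all, and Phf19 did not pass it. All groups are the same established line with no stated genetic difference, grown on gelatin in N2B27, a defined medium without serum. Before withdrawal the medium held either 2i or 2iL. The 2i mixture is CHIR99021 at 3 uM, which blocks the kinase GSK3, with PD0325901 at 1 uM, which blocks the kinase MEK. The 2iL mixture holds the cytokine LIF as well. Cells were then given plain N2B27 and collected at 0, 24, 36, 48, 60, 72, 84 and 96 h in the 2iL course and at 0, 12, 24, 36, 48, 60, 72 and 84 h in the 2i course. The 0 h cells had not been withdrawn, so the effect of withdrawal and that of time in culture cannot be told apart. Each of the 16 groups had 2 libraries, and the library 2iL 36 h replicate 2, which held 7298 counts, was left out.

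PRC2 places methyl groups on lysine 27 of histone H3. EZH2 is its catalytic subunit, and it is active only when bound to EED, which reads the finished mark, and to SUZ12, the scaffold. JARID2 on the one side and the Polycomb-like proteins MTF2 and PHF19 on the other are accessory subunits that bring PRC2 to unmethylated CpG-rich DNA and belong to alternative forms of the complex. PRC1 places ubiquitin on histone H2A through RNF2 or its paralog RING1, paired with a PCGF protein such as BMI1 (PCGF4). Canonical PRC1 also carries a CBX protein, which binds the PRC2 mark. In mouse embryonic stem cells CBX7 is the main CBX protein, and CBX2 and others take its place as cells differentiate.

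CpG-rich promoters are the kind of DNA that Polycomb complexes themselves bind. Promoter sequences from RefSeq (GRCm38.p6), running from 250 bases before to 50 after a start, were matched for 9 of the 10 genes, Cbx2 being the other. All 9 have a window with at least 17 CpG, against a median of 7 CpG over 32851 promoters of the same length. The share of all promoters with fewer CpG runs from 68.6% for Eed to 96.5% for Suz12, so promoters outside the set pass this cut too. Mtf2 has a second listed start downstream, whose window holds 2 CpG and 3 CCAAT matches. The 4 below are shown because their RNAs took different courses. Suz12 and Mtf2 fell in both courses, and Cbx7 fell strongly in the 2i course. Ezh2 was called higher at the last time of both courses, a call that some alternatives lost. Capitals mark matches to the E2F-type letters TTTCCCGC or TTTGGCGC and to CCAAT, each searched on both strands, so that CCAAT may also read ATTGG. The motifs do not overlap here. They were chosen with the sequences at hand.
Ezh2, chr6:47594981-47595280, minus strand: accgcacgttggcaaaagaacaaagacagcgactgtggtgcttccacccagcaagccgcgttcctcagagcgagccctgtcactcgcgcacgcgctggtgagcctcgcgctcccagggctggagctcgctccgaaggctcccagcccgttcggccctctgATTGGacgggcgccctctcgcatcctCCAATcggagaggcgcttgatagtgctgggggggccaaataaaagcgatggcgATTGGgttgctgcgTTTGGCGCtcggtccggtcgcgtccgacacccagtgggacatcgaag
Suz12, chr11:79992856-79993155, plus strand: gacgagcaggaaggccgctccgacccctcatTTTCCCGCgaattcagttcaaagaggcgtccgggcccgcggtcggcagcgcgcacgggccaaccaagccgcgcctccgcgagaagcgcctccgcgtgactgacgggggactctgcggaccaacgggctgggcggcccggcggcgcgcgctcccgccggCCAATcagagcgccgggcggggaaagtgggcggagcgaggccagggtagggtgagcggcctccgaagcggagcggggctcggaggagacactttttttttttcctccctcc
Mtf2, chr5:108065424-108065723, plus strand: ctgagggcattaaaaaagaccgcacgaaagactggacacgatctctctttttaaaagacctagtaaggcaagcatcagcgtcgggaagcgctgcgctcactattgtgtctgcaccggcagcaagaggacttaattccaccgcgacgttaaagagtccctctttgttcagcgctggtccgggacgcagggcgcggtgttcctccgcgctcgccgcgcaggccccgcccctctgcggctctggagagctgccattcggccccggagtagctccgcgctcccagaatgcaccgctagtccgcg
Cbx7, chr15:79932597-79932896, minus strand: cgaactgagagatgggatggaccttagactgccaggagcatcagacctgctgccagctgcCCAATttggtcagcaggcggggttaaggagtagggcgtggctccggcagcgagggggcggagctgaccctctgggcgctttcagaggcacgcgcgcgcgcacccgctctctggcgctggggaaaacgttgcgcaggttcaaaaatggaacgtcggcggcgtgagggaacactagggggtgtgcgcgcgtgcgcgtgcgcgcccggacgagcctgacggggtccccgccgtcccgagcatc

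The Ezh2 window holds 1 E2F-type match, 3 CCAAT matches and 31 CpG. The Suz12 window holds 1 E2F-type match, 1 CCAAT match and 41 CpG. The Mtf2 window at the upstream start holds neither motif and 30 CpG, and the Cbx7 window holds 1 CCAAT match and 33 CpG. Phf19 is the only other of the 9 genes with an E2F-type match. Of all 32851 promoters 1.56% hold an E2F-type match and 37.4% hold CCAAT. The Ezh2 window holds TTTGGCGC and the Suz12 window TTTCCCGC. At the last times Suz12 was called lower and Ezh2 higher, the Ezh2 calls being less firm. A match is a description of these windows and says nothing of binding.

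Messenger RNA was counted from the 3' end of transcripts, so a count stands for a transcript end and levels of different genes are not compared. Levels are CPM, counts per 1000000 counts, scaled with TMM factors. The 31 libraries held 1122648 to 3438514 counts (median 1980949). A gene with no count may still have been present at up to 3 counts. This is 0.872 to 2.67 CPM before the TMM scaling, depending on the library. This limit covers counting error only. Whether the 2 libraries of a group came from separate cultures is not stated in the labels, and p-values then cover the spread between these libraries alone, which may be technical. A log2 fold change is given with its standard error, and a gene is said to have risen or fallen where its adjusted p (edgeR quasi-likelihood test, Benjamini-Hochberg adjustment over all tested genes) was under 0.05. Of the libraries, 4 stood apart from their partners, namely replicate 1 at 48 h and at 96 h of the 2iL course, and replicate 2 at 84 h of that course and at 12 h of the 2i course. The log2 levels of all genes differed between the partners of those groups with an SD of 0.562 to 0.616. The SD was 0.573 at 2iL 24 h, whose libraries were not set apart, and 0.321 to 0.388 in the other groups. This SD is shared by both partners and does not tell which is the odd one, and the 4 libraries were set by hand. A call gained without them is given beside the main fit and does not replace it. Leaving them out also changed the estimate of the spread that all groups share, including groups that hold none of them. Several results that rest on the 4 libraries are given with and without them, and others only with them. The 10 pluripotency markers summed to 575 to 594 CPM at 96 h and to 3110 to 3260 CPM at 0 h in the 2iL course. Those markers summed to 462 to 465 CPM at 84 h and to 2130 to 2200 CPM at 0 h in the 2i course. The 6 neural markers summed to 406 to 527 CPM at 2iL 96 h, against 150 to 158 CPM at 0 h. They summed to 400 to 405 CPM at 2i 84 h, against 91.4 to 108 CPM at 0 h. The 6 primitive endoderm markers summed to 0.659 to 2.8 CPM at 2iL 96 h, against 0.418 to 3.98 CPM at 0 h, and to 9.18 to 10.8 CPM at 2i 84 h, against 1.54 to 3.29 CPM at 0 h. The 6 fibroblast markers summed to 20.8 to 23.7 CPM at 2iL 96 h, against 1.77 to 5.85 CPM at 0 h, and to 17.7 to 27.6 CPM at 2i 84 h, against 1.93 to 5.49 CPM at 0 h. The 6 trophectoderm markers, among them Tfap2c and Cdx2, summed to 14.5 to 14.8 CPM at 2iL 96 h and 172 to 182 CPM at 0 h, and to 47 to 66.5 CPM at 2i 84 h and 220 to 235 CPM at 0 h. In bulk RNA fewer cells of a type and less RNA per cell cannot be told apart, and the part of a changing cell mixture in the results below was not tested.

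Most of the set changed after withdrawal, in a pattern that split it. In the joint test over all 7 times, 8 of the 9 tested genes changed in the 2iL course, where 58.5% of all genes did, and 7 of 9 changed in the 2i course, where 54.2% of all genes did. At the last time of the 2iL course 7 of 9 had changed from 0 h, against 41% of all genes. Cbx2 and Ezh2 were higher and Eed, Suz12, Mtf2, Rnf2 and Bmi1 were lower. At the last time of the 2i course 7 of 9 had changed, against 34.3% of all genes. Cbx2 and Ezh2 were again higher, and Eed, Suz12, Mtf2, Jarid2 and Cbx7 were lower. The median log2 fold change of the 9 genes was -0.86 at 2iL 96 h and -0.84 at 2i 84 h, where the median over all tested genes was 0.01 in each. The transcript of the catalytic subunit was called higher at both ends while those of its obligate partners were lower. The Ezh2 call was lost in 6 of 11 alternatives at 2iL 96 h and in 3 of 11 at 2i 84 h. Of the 2 CBX genes 1 was higher and 1 lower at the end of the 2i course.

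More of these genes had changed late than early in both courses, as held for all genes. In 2iL it was 1 of 9 at 24 h, against 12.5% of all genes, 1 at 36 h (11.5% of all genes), 3 at 48 h (30.7%), 5 at 60 h (28.9%), 7 at 72 h (30.2%) and 7 at 84 h (36.6%). In 2i it was 2 of 9 at 12 h, against 11.7% of all genes, 4 at 24 h (18.4%), 3 at 36 h (18.5%), 4 at 48 h (21.3%), 6 at 60 h (25.6%) and 6 at 72 h (29.7%). Several of these counts rested on single libraries. The 2iL count at 48 h was 1 with 48 h replicate 1 removed. That at 2iL 72 h was 4, without Cbx2, Rnf2 and Bmi1, with 0 h replicate 1 or 72 h replicate 2 removed or with no filter on low counts. The 2i count at 12 h was 1, without Ezh2, with either 0 h library or 12 h replicate 2 removed. At 2i 24 h it was 1, Cbx2 alone, with 0 h replicate 1 removed, and 2 with 0 h replicate 2 or 24 h replicate 1 removed, when Jarid2 and Mtf2 were not called. At 2i 60 h it was 3, without Eed, Jarid2 and Cbx7, with 60 h replicate 1 removed. The early calls were Jarid2 at 24 h and 36 h in 2iL, and Jarid2 and Ezh2 at 12 h in 2i.

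**Figure D1:**
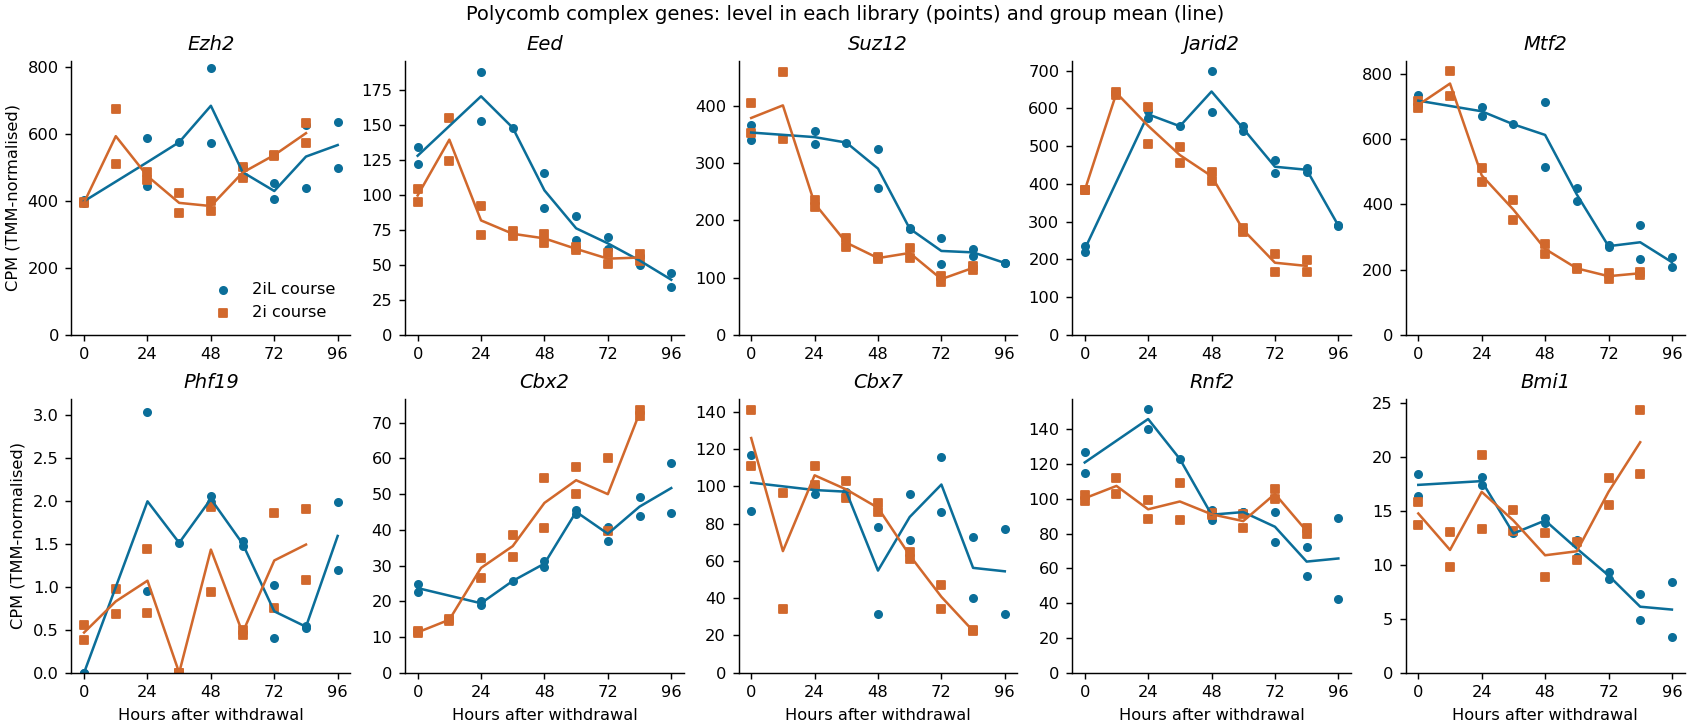
Level of each of the 10 genes in CPM (y axis) against hours after withdrawal (x axis). Circles are libraries of the 2iL course, squares libraries of the 2i course, and lines join group means. Suz12, Mtf2 and Eed decline in both courses, Cbx2 climbs, and Phf19 stays at or below 3.03 CPM throughout.

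Of the PRC2 core, Ezh2 (ENSMUSG00000029687, chromosome 6, 47530139 to 47595341, mm10) was the only gene that was not lower at the end of either course. In the 2iL course its libraries held 395 and 404 CPM at 0 h, 589 and 444 at 24 h, 576 at 36 h and 797 and 573 at 48 h. They then held 472 and 501 at 60 h, 407 and 453 at 72 h, 440 and 626 at 84 h and 635 and 500 CPM at 96 h. Every withdrawn library lay above both 0 h libraries. Ezh2 rose by 0.78 ± 0.18 at 48 h (adjusted p = 0.0013), and by 0.53 (adjusted p = 0.063) with 48 h replicate 1 removed, which is a library that stands apart. At 96 h the rise was 0.51 ± 0.18 (adjusted p = 0.024). It fell short of the threshold without 96 h replicate 1 (0.33, adjusted p = 0.27), without 0 h replicate 1 (0.49, adjusted p = 0.11) or without 0 h replicate 2 (0.53, adjusted p = 0.085). The joint test over the 2iL course called Ezh2 (adjusted p = 0.012) and did not without 48 h replicate 1 (adjusted p = 0.073) or with the 2iL course fitted alone (adjusted p = 0.12). The 96 h rise also missed the threshold with the 2iL course alone (0.49, adjusted p = 0.083), with all 32 libraries (0.49, adjusted p = 0.052) and without the 4 libraries that stand apart (0.33, adjusted p = 0.061). Exons of Ezh2 share 174 bases with Gm26625 on the opposite strand, which held 7 counts in all libraries.

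After 2i, Ezh2 went up and came back before it went up again. It held 397 and 394 CPM at 0 h, 512 and 676 at 12 h, 463 and 486 at 24 h, 364 and 425 at 36 h and 371 and 399 at 48 h. Later libraries held 469 and 501 at 60 h, 539 and 536 at 72 h and 574 and 632 CPM at 84 h. The 12 h rise was 0.58 ± 0.18 (adjusted p = 0.032) but 0.36 (adjusted p = 0.34) without 12 h replicate 2, a library that stands apart. It was also not called without 0 h replicate 1 (0.62, adjusted p = 0.14) or without 0 h replicate 2 (0.56, adjusted p = 0.15). The 84 h libraries both lay above all 0 h libraries, with a rise of 0.61 ± 0.18 (adjusted p = 0.0085). With a library fewer, this rise was 0.62 without 0 h replicate 1 (adjusted p = 0.066), 0.57 without 0 h replicate 2 (adjusted p = 0.059) and 0.52 without 84 h replicate 2 (adjusted p = 0.082). Over all 7 times Ezh2 changed with an adjusted p of 0.0059.

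Eed (ENSMUSG00000030619, chromosome 7, 89954654 to 89980983) fell late in both courses. In the 2iL course it held 134 and 122 CPM at 0 h, 188 and 153 at 24 h, 148 at 36 h, 90.5 and 116 at 48 h, 84.8 and 67.4 at 60 h, 69.6 and 61.1 at 72 h, 56 and 50.2 at 84 h and 34.3 and 44.4 CPM at 96 h. The libraries from 48 h on all lay below those at 0 h, and the fall at 96 h was the largest, -1.68 ± 0.19 (adjusted p = 3.4e-08). After 2i withdrawal Eed held 95.2 and 104 CPM at 0 h, 155 and 124 at 12 h, 92.4 and 71.1 at 24 h, 70.5 and 73.9 at 36 h, 72 and 65.8 at 48 h, 60.3 and 62.5 at 60 h, 50.3 and 58.5 at 72 h and 52.6 and 57.8 CPM at 84 h. Here the change at 84 h was -0.84 ± 0.19 (adjusted p = 0.00094). Both courses had their highest Eed libraries at the first time sampled after 0 h, but neither early difference was called (0.41 ± 0.18 at 2iL 24 h, adjusted p = 0.13, and 0.49 ± 0.18 at 2i 12 h, adjusted p = 0.078). Without the 4 libraries that stand apart the values were 0.43 and 0.62, and both passed the threshold. None of the 4 is at 0 or 24 h of the 2iL course, so only the shared fit changed there. At 2i 12 h the removal left the higher library, of 155 CPM, alone.

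Suz12 (ENSMUSG00000017548, chromosome 11, 79993106 to 80034123) fell in both courses, with called falls from 24 h on in the 2i course and from 60 h on in the 2iL course. Its libraries in the 2iL course held 366 and 341 CPM at 0 h, 334 and 357 at 24 h, 336 at 36 h, 325 and 256 at 48 h, 185 and 186 at 60 h, 123 and 170 at 72 h, 138 and 150 at 84 h and 125 and 126 CPM at 96 h. From 60 h on no library held more than 186 CPM. Without the 4 libraries that stand apart Suz12 was called at 48 h as well (-0.48, adjusted p = 0.012). Its libraries in the 2i course held 406 and 352 CPM at 0 h, 460 and 342 at 12 h, 235 and 224 at 24 h, 153 and 169 at 36 h, 136 and 132 at 48 h, 134 and 152 at 60 h, 103 and 91.5 at 72 h and 114 and 120 CPM at 84 h. From 24 h on every library lay below both 0 h libraries. The fall at 24 h of the 2i course was -0.73 ± 0.16 (adjusted p = 0.0014, and -0.60 with adjusted p = 0.05 without 0 h replicate 1), while at 24 h of the 2iL course the difference was -0.03 (adjusted p = 0.92). At the end of the courses the log2 fold changes of Suz12 were -1.49 ± 0.17 at 2iL 96 h (adjusted p = 2.1e-08) and -1.69 ± 0.17 at 2i 84 h (adjusted p = 3.3e-09). Exons of Suz12 share 178 bases with Gm26563 on the opposite strand, which held 74 counts in all libraries.

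**Figure D2:**
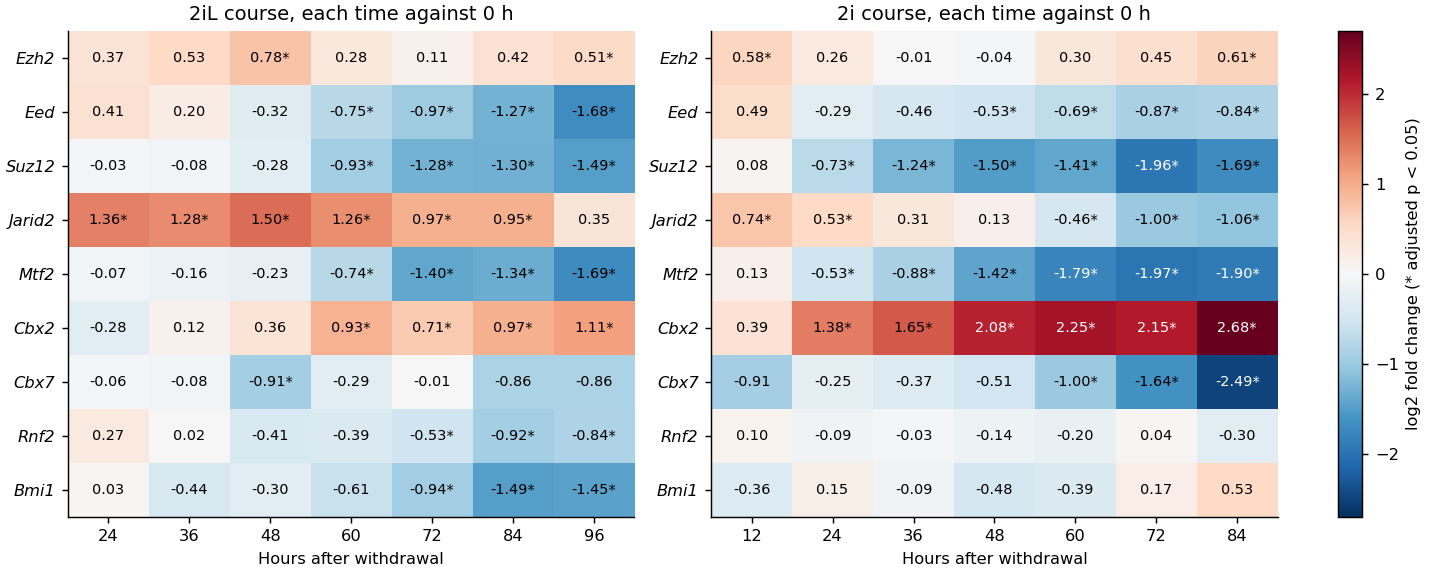
Log2 fold change against 0 h of the same course (colour and number) for the 9 tested genes (rows) at each time after withdrawal in hours (columns), 2iL course on the left and 2i course on the right. An asterisk marks an adjusted p under 0.05. Jarid2 is red along nearly the whole 2iL row (up to 1.5 at 48 h) and turns blue in the 2i row (-1.06 at 84 h), and Cbx2 reaches 2.68 at 2i 84 h.

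Of the accessory PRC2 subunits, Jarid2 (ENSMUSG00000038518, chromosome 13, 44729474 to 44921643) rose after withdrawal in both courses, was called higher up to 84 h of the 2iL course and fell below its 0 h level in the 2i course. Its 2iL libraries held 235 and 219 CPM at 0 h, 575 and 594 at 24 h, 553 at 36 h, 699 and 591 at 48 h, 554 and 539 at 60 h, 428 and 463 at 72 h, 432 and 443 at 84 h and 291 and 288 CPM at 96 h. All withdrawn libraries lay above both 0 h libraries. It rose by 1.36 ± 0.15 at 24 h (adjusted p = 6.8e-08) and by 1.5 ± 0.14 at 48 h (adjusted p = 2.3e-09). At 96 h the difference was 0.35 ± 0.14 (adjusted p = 0.051), which DESeq2 called (0.41, adjusted p = 0.018). Its 2i libraries held 383 and 383 CPM at 0 h, 645 and 637 at 12 h, 603 and 505 at 24 h, 498 and 455 at 36 h, 432 and 409 at 48 h, 272 and 284 at 60 h, 215 and 167 at 72 h and 166 and 199 CPM at 84 h. The level peaked at the earliest time and ended below where it began. Jarid2 rose by 0.74 ± 0.14 at 12 h (adjusted p = 0.00064) and fell by 1.06 on the log2 scale at 84 h (SE 0.15, adjusted p = 1.2e-06).

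Mtf2 (ENSMUSG00000029267, chromosome 5, 108065674 to 108109004), a Polycomb-like subunit that binds CpG-rich DNA, fell in both courses. Its levels in the 2iL course were 735 and 700 CPM at 0 h, 672 and 698 at 24 h, 645 at 36 h, 712 and 513 at 48 h, 451 and 409 at 60 h, 274 and 269 at 72 h, 231 and 336 at 84 h and 238 and 207 CPM at 96 h. Its levels in the 2i course were 715 and 694 CPM at 0 h, 807 and 733 at 12 h, 467 and 510 at 24 h, 414 and 353 at 36 h, 248 and 278 at 48 h, 205 and 202 at 60 h, 189 and 170 at 72 h and 184 and 193 CPM at 84 h. In the 2iL course the libraries from 60 h on lay below every 0 h library, and in the 2i course those from 24 h on did. The falls at the end were -1.69 ± 0.17 at 2iL 96 h (adjusted p = 1.9e-09) and -1.90 ± 0.17 at 2i 84 h (adjusted p = 3.7e-10). At 24 h of the 2i course Mtf2 was lower by less, -0.53 ± 0.16 (adjusted p = 0.019). This early call was lost when any of the 4 libraries compared was left out (-0.59 to -0.45, adjusted p = 0.056 to 0.19). Exons of Mtf2 share 395 bases with Tmed5 on the opposite strand, and Tmed5 held 1404 counts in all libraries together, against 15201 for Mtf2 in the 2iL course alone. The strand setting of the counting is not given in the sources used here.

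Phf19 (ENSMUSG00000026873, chromosome 2, 34893757 to 34914026), the other Polycomb-like gene, was barely detected. It had 38 counts in the 15 libraries of the 2iL course and 25 in the 16 libraries of the 2i course, with 0 to 6 per library. Both 2iL 0 h libraries and both 2i 36 h libraries held 0 counts. Its highest level was 3.03 CPM, in 2iL 24 h replicate 1 with 4 counts. Without a filter on low counts, the joint test gave an adjusted p of 0.3 in the 2iL course and 0.85 in the 2i course. A change in Phf19 was not detectable at this depth.

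Among the PRC1 genes, Cbx2 (ENSMUSG00000025577, chromosome 11, 119022962 to 119031270) rose in both courses. Its 2iL libraries held 22.6 and 24.8 CPM at 0 h, 18.9 and 20 at 24 h, 25.7 at 36 h, 29.7 and 31.4 at 48 h, 45.7 and 44.4 at 60 h, 37 and 40.8 at 72 h, 43.9 and 49.1 at 84 h and 58.6 and 44.8 CPM at 96 h. From 36 h on every library lay above both 0 h libraries, and the rise at 96 h was 1.11 ± 0.22 (adjusted p = 0.00012). Its 2i libraries held 11.6 and 11 CPM at 0 h, 15.1 and 14.6 at 12 h, 26.5 and 32.2 at 24 h, 38.6 and 32.3 at 36 h, 40.5 and 54.6 at 48 h, 57.7 and 50.1 at 60 h, 60.2 and 39.8 at 72 h and 73.5 and 71.9 CPM at 84 h. No withdrawn library overlapped the 0 h libraries. The rise was 1.38 ± 0.25 at 24 h (adjusted p = 0.00013) and 2.68 ± 0.24 at 84 h (adjusted p = 2.9e-10).

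Cbx7 (ENSMUSG00000053411, chromosome 15, 79915807 to 79971119) fell in the 2i course and scattered in the 2iL course. Its 2iL libraries held 117 and 87.1 CPM at 0 h, 96.2 and 100 at 24 h, 97.2 at 36 h, 31.4 and 78.3 at 48 h, 96.2 and 71 at 60 h, 116 and 86.1 at 72 h, 72.7 and 39.9 at 84 h and 31.6 and 77.3 CPM at 96 h. The low values of 31.4, 39.9 and 31.6 CPM are those of the 3 libraries of this course that stand apart, and the part of whatever sets these libraries apart was not tested. The joint test did not call Cbx7 (adjusted p = 0.056), nor did it without the 4 libraries (adjusted p = 0.11). It did without any filter on low counts (adjusted p = 1.7e-07), and with the shallow library included (adjusted p = 0.038). The fit without a filter used the same libraries and Cbx7 counts, so that shift came from the fit alone. At 48 h Cbx7 differed by -0.91 ± 0.35 (adjusted p = 0.046), and it was not called with 48 h replicate 1 removed (-0.37, adjusted p = 0.5), nor with 0 h replicate 1 (-0.68, adjusted p = 0.28) or 0 h replicate 2 removed (-1.12, adjusted p = 0.056). Nor was it called with the 2iL course fitted alone (-0.93, adjusted p = 0.11) or without the 4 libraries (-0.41, adjusted p = 0.13). The joint call was gained without 36 h replicate 1 (adjusted p = 0.042), 48 h replicate 2 (0.0021), 84 h replicate 1 (0.018) or 96 h replicate 2 (0.0058).

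The Cbx7 libraries of the 2i course held 141 and 111 CPM at 0 h, 96.5 and 34.1 at 12 h, 111 and 101 at 24 h, 93.8 and 103 at 36 h, 86.1 and 91 at 48 h, 61.1 and 65 at 60 h, 34.2 and 47.3 at 72 h and 22.2 and 22.7 CPM at 84 h. The 34.1 CPM at 12 h is that of a library that stands apart. From 36 h on all libraries lay below both 0 h libraries. At 48 h the difference was -0.51 (adjusted p = 0.33), and it was called without the 4 libraries that stand apart (-0.53, adjusted p = 0.0092) and with the 2i course fitted alone (-0.51, adjusted p = 0.041). Cbx7 fell by 1.64 on the log2 scale at 72 h (SE 0.38, adjusted p = 0.0013) and by 2.49 at 84 h (SE 0.40, adjusted p = 1.3e-05). Without the 4 libraries the 84 h value was also -2.49. None of the 4 is at 0, 48 or 84 h of the 2i course, so only the shared fit changed for those times. The values without the 4 libraries therefore say nothing of stability there. Exons of Cbx7 share 100 bases with Apobec3 on the opposite strand, which held 1375 counts in all, against 2368 for Cbx7 in the 2i course alone.

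Rnf2 (ENSMUSG00000026484, chromosome 1, 151458004 to 151500955) encodes a ubiquitin ligase of PRC1. Over the 2i course the highest of its group means was 1.32 times the lowest, the smallest such ratio of the 9 tested genes in that course. The libraries lay between 79.8 and 112 CPM (median 95.3) at all times, and the joint test did not call it (adjusted p = 0.68). At 2i 84 h it held 79.8 and 83.2 CPM against 102 and 98.8 CPM at 0 h, a difference of -0.30 ± 0.21 (adjusted p = 0.29). It held 42.2 and 89.3 CPM at 96 h and 72.2 and 55.7 CPM at 84 h, against 115 and 127 CPM at 0 h, in the 2iL course. The groups did not overlap, and the joint test called it (adjusted p = 0.00014, and 3.3e-06 without the 4 libraries). Rnf2 fell by 0.92 on the log2 scale at 84 h (SE 0.21, adjusted p = 0.00086) and by 0.84 at 96 h (SE 0.21, adjusted p = 0.0017). Over the alternatives the 84 h value was -1.12 to -0.74. The 96 h value was -0.43 (adjusted p = 0.088) without 96 h replicate 1. Exons of Rnf2 share 158 bases with Trmt1l on the opposite strand, which held 1094 counts in all, against 2785 for Rnf2 in the 2i course alone.

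Bmi1 (ENSMUSG00000026739, chromosome 2, 18677018 to 18686629), a PCGF subunit known for repressing the Cdkn2a locus, rests on 5 to 45 counts per library. It held 3.29 and 8.41 CPM at 2iL 96 h and 7.32 and 4.91 CPM at 84 h, against 18.4 and 16.4 CPM at 0 h. The groups did not overlap, and Bmi1 fell by 1.45 on the log2 scale at 96 h (SE 0.34, adjusted p = 0.001). The 3.29 CPM is that of a library that stands apart, and the 96 h value was -2.36 to -1.04 over the alternatives. Bmi1 held 18.4 and 24.3 CPM at 2i 84 h, against 15.8 and 13.7 CPM at 0 h. Both late libraries lay higher, but the difference was not called (0.53 ± 0.30, adjusted p = 0.17), nor was the 2i course as a whole (adjusted p = 0.086).

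Exchange between alternative subunits was asked with ratios of counts within a library, in which the scaling cancels. The ratio of the last 3 times was set against that of the first 3 times of a course. A two-sided exact permutation test over libraries was used, with adjustment over the 12 ratio tests made. The first times were 0, 24 and 36 h in the 2iL course and 0, 12 and 24 h in the 2i course. The last were 72, 84 and 96 h in the 2iL course and 60, 72 and 84 h in the 2i course. Single libraries were shuffled and not whole times. The p-values are therefore too small if the 2 libraries of a time are not separate cultures. A ratio is used for its change only, since levels of different genes are not compared. The log2 ratio of Cbx2 over Cbx7 averaged -0.51 ± 0.93 (SD, n = 6) late and -2.14 ± 0.26 (n = 5) early in the 2iL course, an increase of 1.63 (exact permutation p = 0.0043, adjusted p = 0.01). In 2i libraries it averaged 0.58 ± 0.95 (SD, n = 6) late and -2.41 ± 0.94 (n = 6) early, an increase of 2.99 (exact permutation p = 0.0022, adjusted p = 0.01). These are the smallest p-values the tests can give, and late and early libraries did not overlap in either course. The 2i libraries went through the whole change in steps, with -3.59 and -3.30 at 0 h, -1.08 and -0.73 at 48 h and 1.71 and 1.65 at 84 h.

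Over the 2iL course the Cbx2 over Cbx7 ratio was -2.37 and -1.81 at 0 h, -0.08 and -1.31 at 48 h and 0.88 and -0.78 at 96 h, with the higher value of each late pair in a library that stands apart. Without the 4 libraries the increase was 1.08 (exact permutation, adjusted p = 0.038), and in the 2i course 3.23. The shallow library held 0 counts of Cbx2 and 0 of Cbx7, so it carries no measurement of this ratio. Over the 2iL course Cbx2 was called in the joint test (adjusted p = 2.7e-05) and Cbx7 was not, and over the 2i course both were (adjusted p = 4.8e-10 for Cbx2 and 0.0001 for Cbx7).

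**Figure D3:**
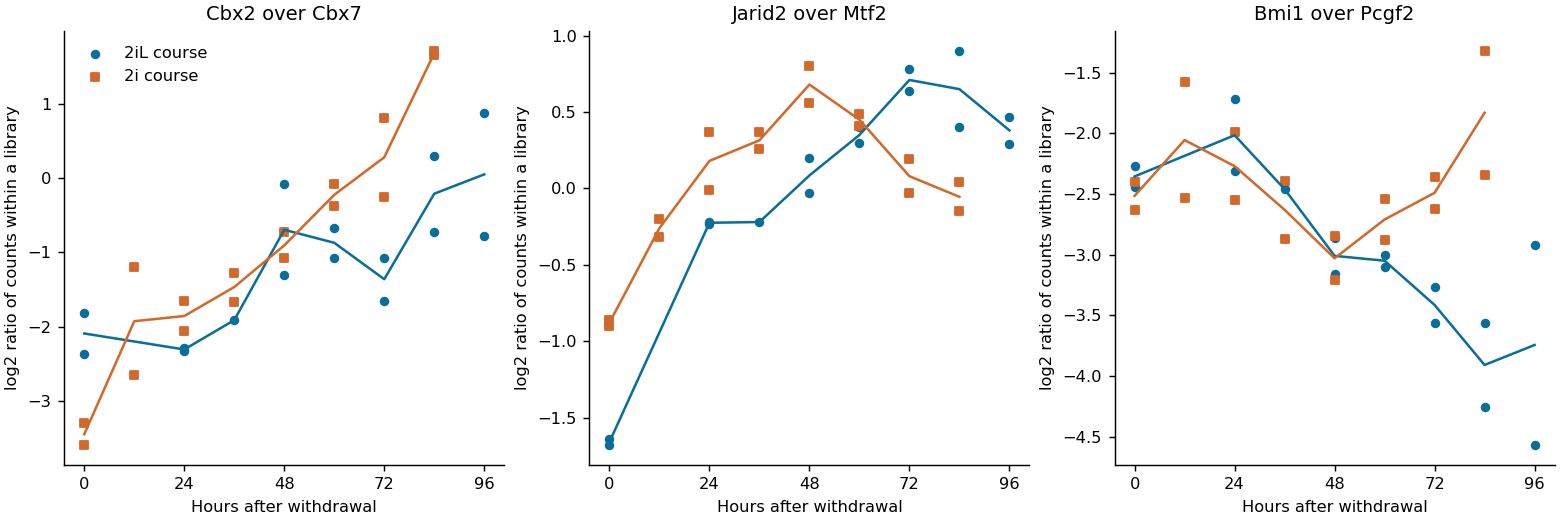
Log2 ratio of counts of paired subunit genes within each library (y axis) against hours after withdrawal (x axis). Circles are 2iL libraries, squares 2i libraries, and lines join means. Cbx2 over Cbx7 climbs to 1.71 and 1.65 at 2i 84 h, and Bmi1 over Pcgf2 changes by -1.45 between early and late times of the 2iL course.

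The other pairs gave a mixed picture. Jarid2 over Mtf2 increased by 1.38 in the 2iL course (0.58 ± 0.24 late and -0.80 ± 0.79 early, n = 6 and 5, exact permutation p = 0.0043, adjusted p = 0.01). Late and early libraries did not overlap. The early libraries held -1.64 and -1.68 at 0 h and -0.22 and -0.23 at 24 h, so much of the rise from 0 h lay within the early times. The same ratio in 2i libraries reached 0.80 and 0.56 at 48 h and returned to -0.15 and 0.04 at 84 h, and late against early differed by 0.48 (exact permutation, adjusted p = 0.094). Bmi1 over Pcgf2, its closest paralog among the PCGF genes, dropped by 1.45 in the 2iL course (-3.69 ± 0.62 late and -2.24 ± 0.30 early, exact permutation, adjusted p = 0.01, and -1.09 with adjusted p = 0.038 without the 4 libraries). The 2i libraries differed by -0.06 (exact permutation, adjusted p = 0.88). Ezh1 over Ezh2, the paralogous methyltransferases, was not called in either course (0.22 with adjusted p = 0.66 in the 2iL course and -0.02 with adjusted p = 0.96 in the 2i course, exact permutation).

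Ring1 over Rnf2, the paralogous ligases, increased by 1.21 in the 2iL course (exact permutation, adjusted p = 0.026) and by 1.30 in the 2i course (exact permutation, adjusted p = 0.037). Both calls were lost without the 4 libraries (1.05 and 1.19, exact permutation, adjusted p = 0.082 each). Ring1 rests on few counts, with 16 and 19 at 2i 84 h against 8 and 6 at 0 h. The 2i result also missed the threshold when any of 9 libraries was left out (1.13 to 1.39, exact permutation, adjusted p = 0.052 to 0.074), namely either library of 0, 12, 72 or 84 h, or 24 h replicate 2. Phf19 over Mtf2 increased by 1.82 (exact permutation, adjusted p = 0.098) in the 2iL course and by 2.04 (adjusted p = 0.01) in the 2i course, but with 0 to 6 Phf19 counts per library its size depends on the pseudocount of 0.5 and it is not read further.

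Whether the courses differed was tested as the change from 0 h in the 2iL course minus that in the 2i course, over the 6 shared times jointly. Of the 9 tested genes 8 differed, against 23.8% of all genes, Rnf2 being the exception (adjusted p = 0.1, and 0.0046 without the 4 libraries). At single times 2 of 9 differed at 24 h, against 3.19% of all genes, 3 at 36 h (3.31%), 5 at 48 h (9.91%), 3 at 60 h (10.8%), 3 at 72 h (10.2%) and 4 at 84 h (11.7%). The 24 h count was 1, Cbx2 alone, with 2iL 0 h replicate 2, 2iL 24 h replicate 2, 2i 0 h replicate 1 or 2i 24 h replicate 2 removed. The 36 h count was 1, Suz12 alone, with 2iL 0 h replicate 2 removed, and the 72 h count was 1, Jarid2 alone, with 2i 72 h replicate 1 removed. For Jarid2 the difference was positive at every shared time, with 1.37 ± 0.20 at 48 h (adjusted p = 2.3e-05) and 2.01 ± 0.21 at 84 h (adjusted p = 3e-08), and a joint adjusted p of 3.1e-08. The change in Cbx2 was smaller in the 2iL course at every shared time, by -1.71 ± 0.33 at 84 h (adjusted p = 0.00052, joint adjusted p = 0.0031). Suz12 and Mtf2 differed in the middle of the time course. At 48 h the difference was 1.22 ± 0.23 for Suz12 (adjusted p = 0.00058) and 1.19 ± 0.23 for Mtf2 (adjusted p = 0.00078). Over the alternatives the 48 h difference was 1.04 to 1.43 for Suz12 and 0.93 to 1.45 for Mtf2. At 84 h it was 0.40 for Suz12 (adjusted p = 0.3) and 0.55 for Mtf2 (adjusted p = 0.12).

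Late differences were also called for PRC1 genes. Bmi1 differed by -2.03 ± 0.46 at 84 h (adjusted p = 0.003), with 7.32 and 4.91 CPM in 2iL libraries and 18.4 and 24.3 CPM in 2i libraries at that time. Its joint adjusted p was 0.0064, and 0.052 without 2i 84 h replicate 2. Cbx7 differed by 1.63 ± 0.51 at 72 h (adjusted p = 0.037) and by 1.63 ± 0.54 at 84 h (adjusted p = 0.047), with a joint adjusted p of 0.018. Both single-time calls of Cbx7 were lost when any of several libraries was left out (1.38 to 1.87 with adjusted p = 0.053 to 0.18 at 72 h for 6 of the 8 libraries, and 1.13 to 1.86 with adjusted p = 0.053 to 0.2 at 84 h for 7 of 8). The exceptions were 2i 0 h replicate 2 and 2iL 72 h replicate 2 at 72 h, and 2iL 84 h replicate 2 at 84 h. With 2iL 72 h replicate 1 removed the joint adjusted p of Cbx7 was 0.055, and with 2i 72 h replicate 1 removed it was 0.062. Without the 4 libraries the 84 h difference was 1.99 (adjusted p = 1.6e-06).

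**Figure D4:**
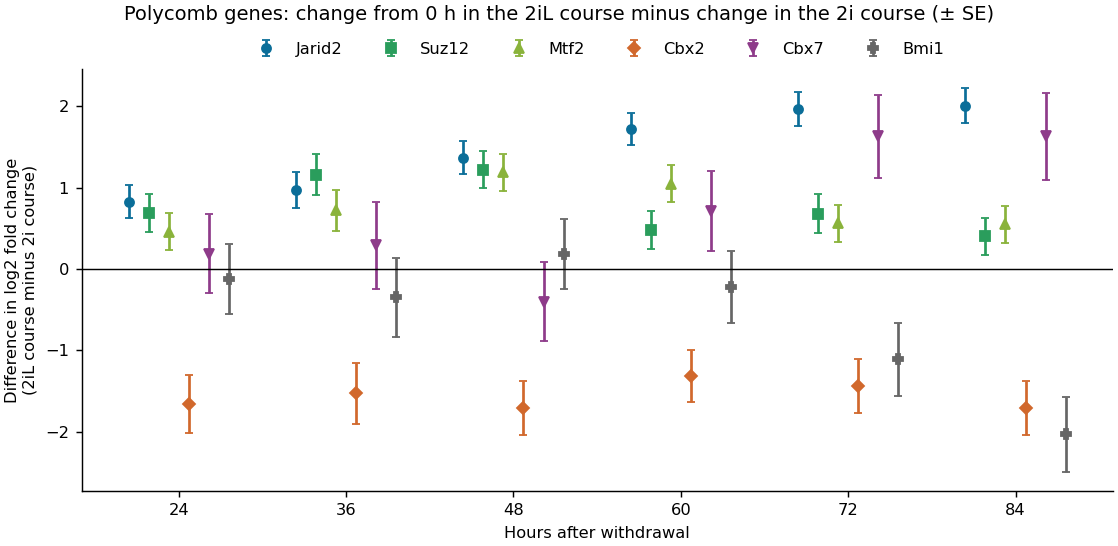
Difference in log2 fold change from 0 h, 2iL course minus 2i course (y axis, points with standard errors), at the 6 shared times in hours (x axis), for 6 genes offset sideways for legibility. Jarid2 climbs to 2.01 at 84 h, Cbx2 stays negative throughout, and Bmi1 drops to -2.03 at 84 h.

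Part of the difference between courses was present before withdrawal. In 2i against 2iL at 0 h, 2 of 9 tested genes differed, against 8.47% of all genes. Jarid2 held 383 and 383 CPM in 2i and 235 and 219 CPM in 2iL, a difference of 0.75 ± 0.14 (adjusted p = 0.00056). Cbx2 held 11.6 and 11 CPM in 2i and 22.6 and 24.8 CPM in 2iL, a difference of -1.06 ± 0.25 (adjusted p = 0.0056). Neither pair of groups overlapped. Cbx2 was not called with 1 of 3 libraries removed, which were 2i 0 h replicate 1 (-1.09, adjusted p = 0.067), 2i 0 h replicate 2 (-0.99, adjusted p = 0.063) and 2iL 0 h replicate 2 (-1.0, adjusted p = 0.06). These 0 h libraries are also those to which the courses are compared. At 60 h the mean Cbx2 level was 45 CPM in 2iL libraries and 53.9 CPM in 2i libraries. At 72 h it was 38.9 CPM in 2iL and 50 CPM in 2i libraries. The mean Jarid2 level at 24 h was 584 CPM in 2iL and 554 CPM in 2i libraries. Much of the difference in change at those times therefore lay in the 0 h levels. At 84 h the Cbx2 level itself was 73.5 and 71.9 CPM in 2i libraries and 43.9 and 49.1 CPM in 2iL libraries, so the order of the levels at 84 h was the opposite of that at 0 h. For Jarid2 it was 166 and 199 CPM in 2i libraries and 432 and 443 CPM in 2iL libraries at 84 h, also the opposite of 0 h. The other 7 tested genes were not called before withdrawal, with differences between -0.37 for Eed and 0.30 for Cbx7.

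The other genes of the pathway were taken from lists of textbook members. Of 7 other PRC2 genes, all tested, 3 changed in the 2iL course, where 58.5% of all genes did, and 5 in the 2i course, where 54.2% did, in the joint tests. Epop, an accessory subunit that links PRC2 to elongin, held 44.2 and 53.2 CPM at 2iL 96 h against 163 and 205 CPM at 0 h, a fall of 1.90 on the log2 scale (SE 0.19, adjusted p = 1.7e-09). At 2i 84 h it held 75.4 and 84.3 CPM against 101 and 106 CPM at 0 h, which was not called (-0.36 ± 0.18, adjusted p = 0.13). Epop was already lower in 2i than in 2iL before withdrawal (-0.84 ± 0.17, adjusted p = 0.0015, and -0.67 with adjusted p = 0.064 when 2iL 0 h replicate 2 was removed). The histone-binding subunit gene Rbbp4 and the Ezh2 paralog Ezh1 changed in both courses in the joint tests, by smaller amounts. At 2iL 96 h Rbbp4 differed by -0.44 (adjusted p = 0.0084) and Ezh1 by 0.36 (adjusted p = 0.16), and at 2i 84 h by -0.22 (adjusted p = 0.22) and -0.62 (adjusted p = 0.036). Rbbp4 was not called at 2iL 96 h with 0 h replicate 1 removed (-0.36, adjusted p = 0.095), nor with 96 h replicate 1 removed (-0.36, adjusted p = 0.1). Ezh1 was not called at 2i 84 h with DESeq2 (-0.56, adjusted p = 0.15), with 0 h replicate 1 removed (-0.54, adjusted p = 0.19) or with 84 h replicate 1 removed (-0.43, adjusted p = 0.26). Its joint adjusted p in the 2i course was 0.082 with 12 h replicate 1 removed and 0.058 with 84 h replicate 1 removed.

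Of 19 other PRC1 genes 18 were tested, Cbx8 not, and 11 changed in the 2iL course (58.5% of all genes), 13 in the 2i course (54.2% of all genes) and 10 in both. Phc1, a polyhomeotic subunit of canonical PRC1, went opposite ways at the ends of the courses. It held 365 and 365 CPM at 2iL 96 h against 209 and 215 CPM at 0 h, a rise of 0.78 ± 0.15 (adjusted p = 0.00014). It held 135 and 113 CPM at 2i 84 h against 282 and 299 CPM at 0 h, a fall of 1.22 on the log2 scale (SE 0.16, adjusted p = 4.5e-07), after 504 and 531 CPM at 48 h. Tested jointly, the courses differed in Phc1 with an adjusted p of 1.2e-10. Its paralog Phc2 rose by 1.29 ± 0.45 at 2iL 96 h (adjusted p = 0.023) and by 2.41 ± 0.45 at 2i 84 h (adjusted p = 9.2e-05). The 2iL value is uneven, with 8.57 and 34 CPM at 96 h against 8.36 and 10.2 CPM at 0 h, the low one in a library that stands apart. With that library, 96 h replicate 1, removed the value was 1.87, and with 96 h replicate 2 removed it was -0.10 (adjusted p = 0.92). It was 1.16 (adjusted p = 0.13) with 0 h replicate 1 removed and 1.44 (adjusted p = 0.068) with 0 h replicate 2 removed, so the 2iL direction of Phc2 rests on 1 library.

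Variant PRC1 lacks the CBX proteins that bind the PRC2 mark. Of its genes, Yaf2 rose by 1.7 ± 0.38 at 2iL 96 h (adjusted p = 0.00063) and by 1.34 ± 0.35 at 2i 84 h (adjusted p = 0.0035), on 10 to 49 counts per library. At 2i 84 h Yaf2 was not called with 0 h replicate 1 removed (1.16, adjusted p = 0.065) or with 84 h replicate 2 removed (1.09, adjusted p = 0.073). Bcorl1, a corepressor of the PCGF1 form, held 94.4 and 84.8 CPM at 2i 84 h against 11.2 and 13.2 CPM at 0 h, a rise of 2.89 ± 0.26 (adjusted p = 4.5e-10). At 2iL 96 h it held 96.9 and 82.1 CPM against 42.2 and 54.8 CPM at 0 h, a rise of 0.88 ± 0.22 (adjusted p = 0.0017). Like Cbx2, Bcorl1 was lower in 2i than in 2iL before withdrawal (-2.0 ± 0.27, adjusted p = 3.4e-06). L3mbtl2, a subunit of the PCGF6 form, fell by 1.01 at 2iL 96 h (SE 0.19, adjusted p = 7.2e-05) and by 1.41 at 2i 84 h (SE 0.19, adjusted p = 8.9e-07) on the log2 scale. Pcgf6 itself changed in both joint tests (adjusted p = 0.00096 and 2.3e-05) without a called difference at the last times.

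**Figure D5:**
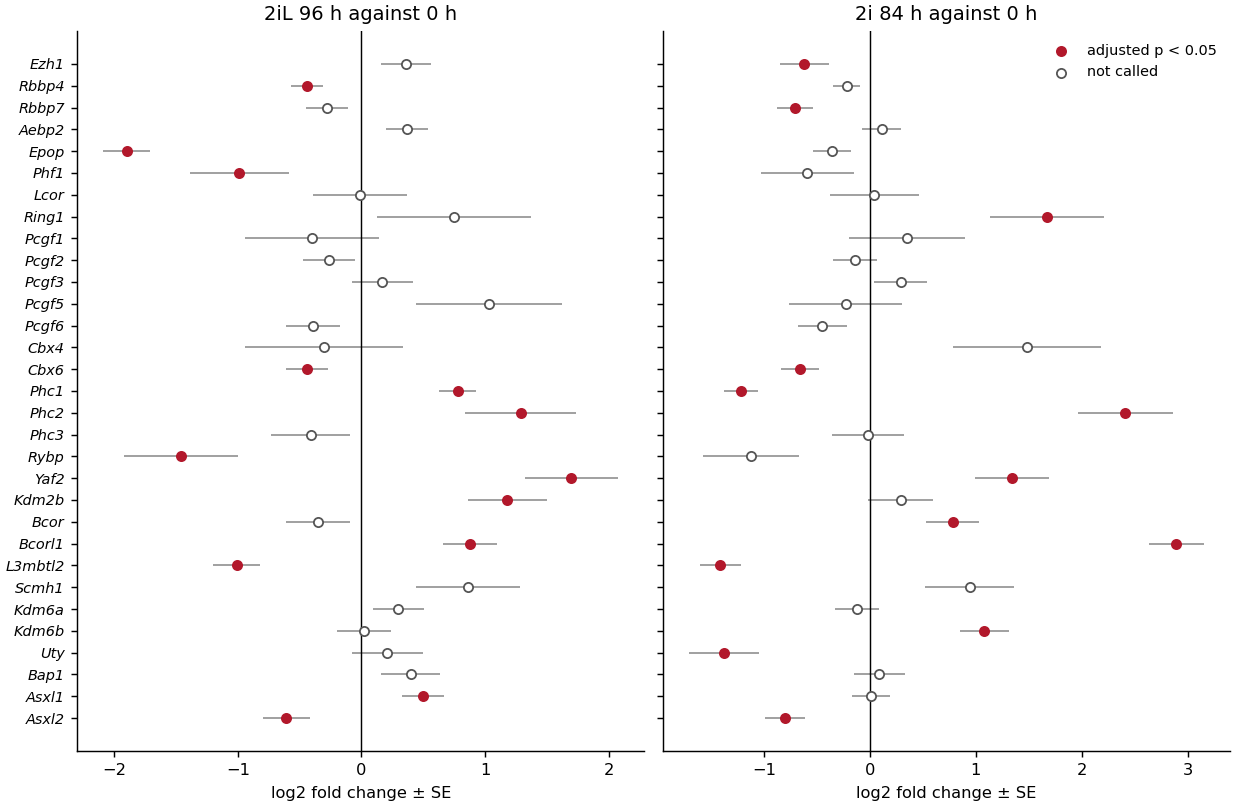
Log2 fold change with standard error (x axis) of the other PRC2, PRC1 and mark-removing genes (rows) at the last time of the 2iL course (left) and of the 2i course (right) against 0 h. Filled points have an adjusted p under 0.05. Phc1 lies right of 0 in the left panel (0.78) and left of 0 in the right panel (-1.22), and Bcorl1 reaches 2.89 on the right.

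Of 6 genes for enzymes that remove or oppose the marks, all tested, 2 changed in the 2iL course (58.5% of all genes) and 4 in the 2i course (54.2% of all genes). Kdm6b, a demethylase of the PRC2 mark, rose by 1.08 ± 0.23 at 2i 84 h (adjusted p = 0.00039, with 55.7 and 61 CPM against 27.4 and 28 CPM at 0 h) and differed by 0.02 at 2iL 96 h (adjusted p = 0.95). Kdm6b counts among the 2 of the 2iL course (joint adjusted p = 0.027), but its joint adjusted p was 0.11 with 2iL 60 h replicate 2 removed. Asxl1, a cofactor of the H2A deubiquitinase BAP1, rose by 0.50 ± 0.17 at 2iL 96 h (adjusted p = 0.021). Asxl1 was not called there with 0 h replicate 1 (0.51, adjusted p = 0.08), 0 h replicate 2 (0.49, adjusted p = 0.091) or 96 h replicate 1 (0.46, adjusted p = 0.097) removed. Of 19 genes often bound by Polycomb complexes in embryonic stem cells 11 were tested, and 7 changed in the 2iL course (58.5% of all genes) and 10 in the 2i course (54.2% of all genes). Those that passed the filter had to be expressed in some group, so the counts describe these 11 and not all 19.

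These target genes did not move as a block. Irx3, a neural patterning factor, held 51.4 and 45.2 CPM at 2iL 96 h against 0.418 and 0.885 CPM at 0 h (1 and 2 counts), and 212 and 224 CPM at 2i 84 h against 0.771 and 2.19 CPM at 0 h (2 and 4 counts). Pax6 held 55.7 and 51.3 CPM at 2i 84 h against 12 and 5.49 CPM at 0 h, a rise of 2.56 ± 0.37 (adjusted p = 2.5e-06). The cell cycle inhibitor genes went both ways. Cdkn1c rose by 3.21 ± 0.34 at 2iL 96 h (adjusted p = 8.9e-09) and by 1.45 ± 0.26 at 2i 84 h (adjusted p = 5.1e-05). Cdkn1a fell by 1.89 at 2iL 96 h (SE 0.20, adjusted p = 5.2e-09) and by 0.94 at 2i 84 h (SE 0.19, adjusted p = 0.00023) on the log2 scale. Cdkn2a held 17.1 and 44 CPM at 2iL 96 h against 200 and 200 CPM at 0 h (-2.63 ± 0.34, adjusted p = 2.3e-07). At 2i 84 h Cdkn2a held 106 and 104 CPM against 226 and 223 CPM at 0 h (-1.09 ± 0.30, adjusted p = 0.0059). At 2iL 96 h Cdkn2a and Bmi1 were both low, and both were lowest in the library of that group that stands apart. At 2i 84 h, where Cdkn2a was lower as well, Bmi1 was not called (0.53 ± 0.30, adjusted p = 0.17). A relation between Cdkn2a and Bmi1 was not tested. T, a mesoderm factor, was down to 1 and 0 counts at 2i 48 h, against 36 and 27 counts at 0 h, and back at 22 and 37 counts at 84 h.

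The genes whose group means over the 16 groups were most like those of Cbx2 and Cbx7 were picked from 8261 genes with a mean log2 CPM of at least 3. Closest to Cbx2 were Tbkbp1 (Pearson r = 0.953), Tet3 (0.943), Pom121 (0.939), Pclaf (0.935) and Dpysl5 (0.928). Among the closest to Cbx7 were Mfap1b (0.904), Gnpnat1 (0.888), Gpbp1l1 (0.885) and Txndc17 (0.876). These are descriptions over 16 group means that share libraries and time. The low Cbx7 values of the libraries that stand apart enter these means, and the likeness without those libraries was not computed.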

How the data were processed

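Polyadenylated RNA of 32 samples was made into 3' end libraries (NEGEDIA Digital mRNAseq), per the labels. Per the submitters' processing notes, the tools included STAR 2.6.0a, HTSeq and bcl2fastq, and the build was mm10. The annotation release and the strand setting are not given in the sources used here. The authors deposited whole-number read counts per Ensembl gene and a table of CPM for the same samples, which differed from CPM computed from the counts by at most 4.7e-10 and was not used further. Between 23.4% and 55.4% of uniquely aligned reads were listed outside genes and stayed out of library sizes and tests. This share was 53.6% and 55.4% at 2i 84 h, against 30.4% and 46.1% at 0 h. At 2iL 96 h it was 53.8% and 50.2%, against 46.7% and 40.8% at 0 h. Its part in the late differences was not tested. Symbols and gene positions came from GENCODE M21 (GRCm38, the sequence of mm10), which names 30934 of 31053 genes.

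Groups and replicate numbers came from the labels. Tests used edgeR 4.0.16 in R 4.3.3 (TMM, a single quasi-likelihood fit of 31 libraries with 1 coefficient per group, 15 residual degrees of freedom, common dispersion 0.0211). Genes needed 10 counts at the median depth in at least 2 libraries and 15 in all, which left 11849. Adjusted p-values (Benjamini-Hochberg) run over all of these genes. Standard errors were obtained by dividing the size of a log2 fold change by the root of its F statistic. Ratios used a pseudocount of 0.5 and exact permutation tests (scipy 1.17.1). The fit was tested on simulated data. Alternatives were DESeq2 1.42.0, RLE size factors, no filter, all 32 libraries, each course alone, the set without the 4 libraries that stand apart, a replicate block, and leaving out each library. Other pathway genes named are at most 6 per list, those called in both joint tests, by the larger p. The genes, lists and tests were chosen with earlier results of these data known. A further gene near Cbx7 in likeness is not reported here.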

Additional observations from a re-analysis of the deposited data

Results flagged for a closer look

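For 8 of the 9 tested Polycomb genes, against 23.8% of all genes, the change after withdrawal differed between the 2iL and the 2i course. This was the joint test of the difference over 6 shared times (edgeR, adjusted p-values). The 0 h levels enter this test, and Jarid2 (0.75) and Cbx2 (-1.06) already differed at 0 h in 2i against 2iL. The adjusted p was 3.1e-08 for Jarid2, 0.0031 for Cbx2, 0.0021 for Suz12, 0.0037 for Mtf2, 0.01 for Ezh2, 0.016 for Eed, 0.018 for Cbx7 and 0.0064 for Bmi1. The calls of Jarid2, Suz12 and Cbx2 were kept under every alternative tried. That of Mtf2 was lost with all 32 libraries in the fit (adjusted p = 0.066). The adjusted p of Ezh2 was 0.064 with 2iL 48 h replicate 1 removed and 0.051 with 2i 48 h replicate 1 removed. That of Eed was 0.053 with 2iL 24 h replicate 1 removed and 0.06 with 2i 24 h replicate 2 removed. That of Cbx7 was 0.055 with 2iL 72 h replicate 1 removed and 0.062 with 2i 72 h replicate 1 removed, and that of Bmi1 was 0.052 with 2i 84 h replicate 2 removed. The Ezh2 difference lay mainly at 48 h, with 797 and 573 CPM in 2iL libraries and 371 and 399 CPM in 2i libraries.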

How the results depend on the processing

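Of the called values, 1 changed sign under the alternatives tried, that of Phc2 at 2iL 96 h, which was -0.10 to 1.87 with a library left out. The number of the 9 tested Polycomb genes that were called stayed within 1.5 times of the main count in the joint tests, at 48, 72 and 84 h of the 2i course, at 60, 84 and 96 h of the 2iL course and for the difference between courses at 48 and 84 h. The other counts moved by more under some alternative. Those at single times beyond 12, 48 and 84 h of 2i and 24, 48 and 96 h of 2iL, and the differences at single times, were recomputed by a choice made after seeing the data. With a library left out the count was 1 to 2 for 2i against 2iL (main count 2), 1 to 3 at 2i 12 h (2), 1 to 3 at 2i 24 h (4), 3 to 6 at 2i 60 h (6), 1 to 3 at 2iL 48 h (3) and 4 to 5 at 2iL 72 h (7). For the difference between courses it was 1 to 2 at 24 h (2), 1 to 3 at 36 h (3) and 1 to 4 at 72 h (3). Without the 4 libraries that stand apart the count was 3 at 2iL 24 h (1), 2 at 2iL 36 h (1) and 5 at 2i 36 h (3), and for the difference it was 4 at 24 h (2), 5 at 60 h (3) and 6 at 72 h (3). With all 32 libraries it was 1 at 2i 12 h and 1 for the difference at 24 h. With the 2i course alone it was 4 at 2i 12 h and 5 at 2i 36 h, and with no filter it was 4 at 2iL 72 h. A comparison with a library left out has fewer samples, and a group with a lone library is assumed to vary like the others. The counts given here without the 4 libraries are for groups that hold none of them, so only the shared fit changed there. The share of all genes called under the alternatives is not given, so a moved count is not read as particular to these genes. The replicate numbers were checked for pairing. Deviations of same-numbered libraries correlated between -0.59 and 0.65 over 105 pairs of groups (median 0.01, over 0.1 in 14). No pairing over the whole series was seen. Pairing within part of the series was not tested. With a replicate block the joint tests called 8 genes in the 2iL course, 7 in the 2i course and 8 for the difference, as without it. Under the block Cbx7 was not called at 2iL 48 h (-0.90, adjusted p = 0.056) or for the difference at 84 h (1.62, adjusted p = 0.055), and Jarid2 at 2iL 96 h was at the threshold (0.35, adjusted p = 0.05).

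The shallow library held 0 counts of Cbx2, Cbx7 and Mtf2, 2 of Jarid2 and 1 of Rnf2, so its ratios are set by the pseudocount and the values with it say nothing of stability. With it Cbx2 over Cbx7 in the 2iL course was 1.28 (exact permutation, adjusted p = 0.11), Jarid2 over Mtf2 in the 2iL course was 0.86 (adjusted p = 0.34) and Ring1 over Rnf2 was 0.57 (adjusted p = 0.73). Without the 4 libraries Ring1 over Rnf2 was 1.05 in the 2iL course and 1.19 in the 2i course (adjusted p = 0.082 each), and with a library left out in the 2i course it was 1.13 to 1.60. Jarid2 over Mtf2 in the 2i course was called with the first 2 against the last 2 times (0.58, adjusted p = 0.043), and was 0.37 to 0.62 with a library left out. Phf19 over Mtf2 in the 2iL course was called with a pseudocount of 5 (1.33, adjusted p = 0.022), and was 1.30 to 2.34 with a library left out. RLE scaling and DESeq2 moved the median of all genes by at most 0.069 on the log2 scale. Phf19, Bmi1 and Ring1 rest on few counts, which limits their precision.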
